A study of Mus musculus with 64 samples.

Results

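Male germ cells of control mice were compared between the embryonic days E16.5 and E18.5, shortly before birth, in 4 RNA-Seq libraries of sorted cells. They were chosen by their labels as the Morc1tg/+ germ cell libraries of these stages, 2 per stage, and are 4 of the 64 samples of the series and 4 of its 20 libraries of sorted germ cells. The study used the controls as the partners of Morc1tg/tg mice, to find which genes and transposons need MORC1, a nuclear ATPase of the germline, for their repression. Here the controls were compared with each other by stage, which asks how the transcriptome of fetal male germ cells moves when no difference in Morc1 dose is involved.

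All 4 mice carried 1 copy of the Morc1tg allele, so the controls were heterozygous and not wild type. The allele arose in FVB/N mice by insertion of a tyrosinase transgene that removed exons 2 to 4 of Morc1. It had been crossed into the Oct4-IRES-eGfp strain, in which green fluorescent protein follows Pou5f1 (Oct4), so the mice were of mixed background. Cells positive for eGFP were sorted from testes after dead cells had been excluded with 7-AAD, and 10 ng of total RNA, depleted of ribosomal RNA, went into the NuGEN Ovation Human FFPE kit, 1 library per mouse. The Morc1tg/tg libraries of the same stages, 2 at E16.5 and 2 at E18.5, were made alike from other mice. The study drew its controls from litters of Morc1tg/tg mice, so the genotypes may share litters and sort days. Embryos of the 2 stages come from different litters, and their sort days and library batches are not given. A change by stage cannot be told apart from a difference of litter, sort or batch. In bulk libraries of this kind, a change in the number of cells of a type and a change of the RNA within each cell cannot be told apart.

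Fetal male germ cells at these stages are called prospermatogonia or gonocytes. They stop dividing after the testis forms, lie in the centre of the cords among Sertoli cells until after birth, and then resume division to found the spermatogonial stem cells. During this arrest their genome, which had lost most of its DNA methylation in primordial germ cells, is methylated anew by DNMT3A, DNMT3C and their cofactor DNMT3L. Transposons are brought under this methylation by Piwi proteins, which carry small RNAs of transposon sequence (piRNAs) and are made and loaded in granules rich in Tudor domain proteins.

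The 4 libraries were of unequal depth. Reads counted on genes were 10747524 and 14918478 at E16.5, and 4007833 and 3898526 at E18.5. A read was found on 19654 and 19110 genes at E16.5 and on 16548 and 14267 genes at E18.5, and the order stayed the same when each library was thinned to 3898526 reads (18874, 18367, 16544 and 14267 genes). E18.5 replicate 2 stood apart, since its log2 CPM (counts scaled to library size) correlated at 0.796 to 0.813 with each other library, whereas the E16.5 libraries correlated at 0.975 with each other. E18.5 replicate 1 correlated at 0.874 and 0.872 with the E16.5 libraries, more than with its own replicate (0.813). By this measure the E18.5 libraries did not group by stage. Across genes, replicates differed by a median of 0.213 on the log2 scale at E16.5 and 0.579 at E18.5. Because of this, values are given below for each fetal library in the genes described in full. For many lists the counts of calls, the list medians or both are also given without 1 library.

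Of 26385 genes listed, 15768 had enough reads to be tested, and 1220 of them (7.74%) were called at an adjusted p under 0.05 by edgeR's quasi-likelihood test. At E18.5, 550 genes were higher (3.49% of those tested) and 670 were lower (4.25%). The median change of a called gene was 1.26 on the log2 scale, and the median over all genes tested was -0.07. The test called 335 or 255 genes without E16.5 replicate 1 or 2, and 9106 or 6392 genes without E18.5 replicate 1 or 2. All 1220 calls were kept without either E18.5 library, whereas 324 or 250 were kept without E16.5 replicate 1 or 2. In a fit without 1 library, the spread between replicates comes from the other stage alone. Replicates differed by a median of 0.579 at E18.5 and 0.213 at E16.5. Such counts therefore do not show how far calls rest on the library left out. Without E18.5 replicate 1 or 2, 17186 or 17238 genes were tested, so these fits called a far larger part of all genes than 7.74%. Without an E16.5 library the part was smaller. List counts below from a fit without 1 library are to be read against the part of all genes called in that fit. The shares of 3.49% and 4.25% do not apply to them. DESeq2 called 2242 genes (988 higher, 1254 lower), which included all 1220. On simulated counts for these libraries, with 200 of 15768 genes changed, the test recovered 10.1% of genes with a log2 change of 1. It recovered 30.2% of those with a log2 change of 2. With so few changed genes the adjusted threshold is stricter, so recovery in the data, where 1220 were called, may be higher. A gene that is not called may still well have changed.

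Changes also followed the length of the transcript. With the tested genes in 5 bins by exon length, 39 of the 3155 with the shortest exon sequence (66 to 2000 bases in total) were called higher and 120 lower at E18.5, and of the 3153 with the longest (6090 bases or more) 237 were called higher and 127 lower. The median log2 fold change went from -0.20 in the first of these bins to 0.06 in the last. Falls changed little by count, from 120 to 153 over the bins. The median exon length was 3724.5 bases for called falls, 5623 for called rises and 3589 for all genes tested. When the trend of each library with exon length and GC content was taken out before the test, a setting chosen after this pattern had been seen, 758 genes were called, 524 higher and 234 lower. This kept 417 of the 550 rises but only 221 of the 670 falls. It also moved the median of all genes tested from -0.07 to 0.20. How many falls were lost to this upward shift of all genes, and how many to the trend, was not tested. The part of RNA quality or of library preparation in this trend was not tested. Where it changes what is said of a group of genes, the count without the trend is given.

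The sort was checked against lists of marker genes. The 20 germ cell genes summed to 1313 and 1694 RPKM (the authors' level per exon length and mapped reads) in the E16.5 libraries and to 1133 and 990.9 RPKM at E18.5. Against this, 24 genes of peritubular and stromal cells summed to between 70.3 and 85.0 RPKM, 19 macrophage genes to between 16.49 and 25.8 RPKM, and 16 red blood cell genes to between 10.8 and 33.2 RPKM. Amh, the hormone of fetal Sertoli cells, was at 1.25 and 0.752 RPKM at E16.5 and at 0.544 and 0 RPKM at E18.5. Insl3, a Leydig cell hormone, had a value above 0 only in E16.5 replicate 1, at 0.0835 RPKM. Ptprc, which marks blood cells, and Cldn5, which marks endothelium, were at 0 in both E18.5 libraries. Amh, Insl3, Ptprc and Cldn5 were thus low at both stages, but not every member of the lists was. Over 5 RPKM in at least 1 of the 4 libraries were 8 of the 24 peritubular and stromal genes, 2 of the 19 macrophage genes and 2 of the 16 red blood cell genes.

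A few genes on the lists of other cell types did rise. The 25 Sertoli genes summed to 77.4 and 96.2 RPKM at E16.5 and to 173.9 and 90.2 RPKM at E18.5, of which Dmrt1, a regulator that germ cells also use, made up 107 and 46.5 RPKM at E18.5. Sox9, the factor that specifies Sertoli cells, was at 6.16 and 7.94 RPKM at E16.5 and at 17.8 and 16.3 RPKM at E18.5 (log2 fold change 1.29, SE 0.17, adjusted p = 0.0203). Ptch1, the Hedgehog receptor that counts as a Leydig marker, rose from 14.4 and 16.9 RPKM to 45.5 and 42.6 RPKM (1.51, SE 0.13, adjusted p = 0.0163). Pecam1, an adhesion protein of endothelium that was also described on early germ cells, rose from 4.57 and 5.46 RPKM to 20.3 and 18.3 RPKM (1.96, SE 0.18, adjusted p = 0.0163). The 18 Leydig genes summed to 39.8 and 47.6 RPKM at E16.5 and to 69.0 and 70.9 RPKM at E18.5, the 18 endothelial genes to 49.5 and 60.7 RPKM and then to 72.5 and 65.6 RPKM, and the 12 genes of mesonephros and coelomic epithelium to 50.8 and 63.6 RPKM and then to 92.8 and 70.1 RPKM, so these 3 sums were higher at E18.5 without overlap. When Dmrt1, Sox9, Ptch1, Pecam1 and Krt18 were set aside, a choice made because they were higher, the other Sertoli genes summed to 55.9 and 69.1 RPKM at E16.5 and to 49.2 and 27.5 RPKM at E18.5. The rest of the Leydig genes then lay between 23.5 and 30.7 RPKM and the rest of the endothelial genes between 44.9 and 55.2 RPKM. Of the genes left, 4 of 23 Sertoli, 2 of 17 Leydig and 6 of 17 endothelial genes passed 5 RPKM in at least 1 library. Without Krt18, a keratin that was at 25.45 and 35.9 RPKM and then at 59.3 and 43.0 RPKM and was not called (adjusted p = 0.0799), the rest of the mesonephros list summed to 25.4 and 27.7 RPKM and then to 33.55 and 27.0 RPKM. The part of these other cell types in the changes described below was not tested. Ptch1 and Pecam1 were called under all 15 alternatives, and Sox9 not without E16.5 replicate 1 or without E16.5 replicate 2.

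Many genes of the piRNA pathway were lower at E18.5. Of its 30 genes, all tested, 12 (40%) were called lower, against 4.25% of all genes, and the median log2 fold change of the list was -0.75 against -0.07 for all genes. In 22 of the 30 genes both E16.5 libraries lay above both E18.5 libraries, as they did in 30.4% of all genes tested. DESeq2 called 19 of the genes lower. Summed over the list, the level was 2635 and 3284 RPKM at E16.5 and 1557 and 1402 RPKM at E18.5. The test called 5 genes lower without E16.5 replicate 1 and 5 without E16.5 replicate 2, 23 or 22 without E18.5 replicate 1 or 2, and without the trend with length and GC it called 3 lower, with a list median of -0.47. Relative to the median of all genes in the same fit, the list median was -0.69 as tested and -0.67 without the trend.

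Piwil4 encodes MIWI2, the Piwi protein that enters the nucleus of prospermatogonia and directs methylation to transposons. It was at 71.5 and 88.6 RPKM at E16.5 and at 21.3 and 22.7 RPKM at E18.5 (log2 fold change -1.84, SE 0.15, adjusted p = 0.0163). Both E18.5 libraries lay far below both E16.5 libraries, and the call held under all 15 alternative settings. Tex15, a nuclear protein that acts with MIWI2, stood at 178.6 and 210.0 RPKM and then at 81.0 and 89.7 RPKM (-1.17, SE 0.14, adjusted p = 0.0187), and it too was called under all 15. Spocd1, another nuclear effector of this step, was at 103.1 and 113.3 RPKM at E16.5 and at 61.9 and 36.7 RPKM at E18.5 (-1.15, SE 0.21, adjusted p = 0.0382). Spocd1 was not called without E16.5 replicate 1, without E16.5 replicate 2 or without the length and GC trend.

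The factors that make and load piRNAs in the cytoplasm varied more. Mael, a granule protein needed for transposon silencing, was the highest of the called genes of the list apart from the chaperone Hsp90aa1, at 400.9 and 503.1 RPKM at E16.5 and at 199.8 and 196.5 RPKM at E18.5 (-1.17, SE 0.12, adjusted p = 0.0163). Tdrd12, a Tudor domain helicase, had the largest fall of the list, from 16.2 and 19.0 RPKM to 4.12 and 3.38 RPKM (-2.22, SE 0.27, adjusted p = 0.0187). Fkbp6, a cochaperone that works with HSP90 in piRNA loading, fell from 224.7 and 287.7 RPKM to 107.2 and 85.9 RPKM (-1.40, SE 0.13, adjusted p = 0.0163). Its partner Hsp90aa1, which encodes the HSP90 alpha chaperone itself, fell from 799.9 and 989.4 RPKM to 409.8 and 393.8 RPKM (-1.14, SE 0.10, adjusted p = 0.0163). Each of these genes was lower in both E18.5 libraries than in either E16.5 library. Mael, Fkbp6 and Hsp90aa1 were not called once the length and GC trend was removed (log2 fold change -0.62, -0.83 and -0.87, adjusted p = 0.132, 0.0671 and 0.0520, in a fit where the median of all genes was 0.20), and Tdrd12 was not called without E16.5 replicate 1 or without E16.5 replicate 2.

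Falls were also called for Pnldc1, which trims piRNA ends (-1.34, adjusted p = 0.0381), for Rnf17 (-0.83, adjusted p = 0.0239), Gtsf1 (-0.81, adjusted p = 0.0392), Tdrd1 (-0.69, adjusted p = 0.0339) and Tdrd9 (-0.63, adjusted p = 0.0412). These 5 calls were lost without E16.5 replicate 1, without E16.5 replicate 2 and without the length and GC trend. Piwil2, the cytoplasmic Piwi protein MILI, was at 95.03 and 131.3 RPKM at E16.5 and at 87.3 and 48.4 RPKM at E18.5 and was not called (-0.74, adjusted p = 0.127). Mov10l1, the helicase that starts piRNA production, was at 127.1 and 168.8 RPKM and at 78.2 and 92.4 RPKM and just missed the threshold (-0.76, adjusted p = 0.0621). Ddx4, the germ cell helicase also known as Vasa, gave overlapping values at the 2 stages, 60.3 and 84.0 RPKM against 66.1 and 58.1 RPKM (-0.20, adjusted p = 0.439).

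The promoters of these genes are shown because 7 of the 19 piRNA pathway genes with a promoter sequence (36.8%) held the E-box CACGTG, against 9.96% of the 11099 tested genes with one. The 7 were Piwil1, Ddx4, Mov10l1, Mael, Tdrd1, Tdrd9 and Fkbp6. Of the members called lower, 4 of 7 with a sequence held it, and over the transcriptome 14.9% of the genes called lower and 9.73% of those called higher did. Ddx4, whose levels overlapped, held the motif as well as Fkbp6, whose level fell. The sequences are those of RefSeq on GRCm38.p6, a later build than the mm9 of the expression tables, and each runs 5′ to 3′ from 150 bases before the transcription start to 20 bases after it. Capitals mark the E-box, which reads the same on both strands.
Fkbp6, chr5:135350025-135350194, minus strand: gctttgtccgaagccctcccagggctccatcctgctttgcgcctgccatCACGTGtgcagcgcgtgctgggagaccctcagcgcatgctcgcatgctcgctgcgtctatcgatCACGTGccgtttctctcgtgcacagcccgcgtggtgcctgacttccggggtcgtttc
Tdrd1, chr19:56826059-56826228, plus strand: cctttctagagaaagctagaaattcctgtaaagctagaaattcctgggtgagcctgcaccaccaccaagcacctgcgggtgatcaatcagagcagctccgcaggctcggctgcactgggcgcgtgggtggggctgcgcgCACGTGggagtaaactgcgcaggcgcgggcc
Tdrd9, chr12:111971409-111971578, plus strand: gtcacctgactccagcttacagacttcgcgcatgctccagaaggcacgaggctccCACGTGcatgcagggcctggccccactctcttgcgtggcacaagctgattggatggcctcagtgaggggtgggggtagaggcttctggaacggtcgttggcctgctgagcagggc

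In all, 9 motifs were searched in windows from 250 bases before to 50 bases after the first RefSeq start of each gene. On both strands these were the GC box GGGCGG, the CCAAT box, the TATA box TATAAA, the E-box, the cAMP response element TGACGTCA, the NRF1 site, the YY1 site AAGATGG and the octamer ATGCAAAT, and near the start CTTTC was searched on the sense strand. The GC box was the most common, in 60.8% of the genes tested, followed by the CCAAT box in 38.3%. A match says only that these letters are in the window.

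Among genes of DNA methylation, a cofactor fell and the methyltransferases were not called. Dnmt3l, the catalytically inactive partner that stimulates de novo methylation in germ cells, was at 90.5 and 104.4 RPKM at E16.5 and at 38.01 and 39.3 RPKM at E18.5 (log2 fold change -1.32, SE 0.14, adjusted p = 0.0163). It was the one call among the 22 genes of the list that were tested (4.55% lower, against 4.25% of all genes), where DESeq2 called 1 lower and 3 higher. Dnmt3a, the enzyme that DNMT3L stimulates, was at 50.8 and 55.6 RPKM and then at 37.9 and 50.3 RPKM (-0.25, SE 0.21, adjusted p = 0.525). Dnmt1, the maintenance enzyme, was at 38.4 and 47.9 RPKM and then at 37.1 and 29.1 RPKM (-0.38, SE 0.13, adjusted p = 0.141). Uhrf1, which guides DNMT1 to replicated DNA, was at 2.80 and 2.92 RPKM and then at 6.19 and 5.95 RPKM, with no overlap between the stages but no call either (1.09, SE 0.27, adjusted p = 0.0728). With the length and GC trend removed, Dnmt3l had a log2 fold change of -0.84 and was not called (adjusted p = 0.121), and without E18.5 replicate 1 or 2 the list had 7 rises in each case and 5 or 2 falls.

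Morc1 itself was at 36.1 and 52.9 RPKM at E16.5 and at 26.1 and 22.4 RPKM at E18.5 (log2 fold change -0.86, SE 0.16, adjusted p = 0.0419). The call was lost without either E16.5 library and without the length and GC trend (-0.51, adjusted p = 0.179). In the Morc1tg/tg libraries it was at 11.2 and 8.29 RPKM at E16.5 and at 7.03 and 2.38 RPKM at E18.5, below every Morc1tg/+ library, as the labels have it.

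A few enzymes of histone methylation were called, in both directions. Kdm1b, a histone H3K4 demethylase known for its part in setting imprints in oocytes, was at 174.5 and 220.8 RPKM at E16.5 and at 76.3 and 76.2 RPKM at E18.5 (log2 fold change -1.35, SE 0.12, adjusted p = 0.0163), and it was called under all 15 alternatives. Its relative Kdm1a (-0.80, adjusted p = 0.0305) and Ehmt2, which encodes the H3K9 methyltransferase G9a (-0.91, adjusted p = 0.0324), also fell. Cbx3, an HP1 protein, rose (0.76, adjusted p = 0.0469), as did Setd2, which trimethylates H3K36 (0.79, adjusted p = 0.0381). Of the 38 genes of this list, 2 were called higher and 4 lower, against 3.49% and 4.25% of all genes. Kdm1a, Cbx3 and Setd2 were not called without E16.5 replicate 1 or without E16.5 replicate 2, and Ehmt2 not without E16.5 replicate 1, while without E18.5 replicate 1 or 2, 9 or 12 genes were called higher and 14 or 9 lower. With the length and GC trend removed, 1 was called higher and 1 lower.

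Among 31 Polycomb genes, 4 (12.9%) were called higher and 1 (3.23%) lower, against 3.49% and 4.25% of all genes. Ezh1, one of the H3K27 methyltransferases, fell from 59.2 and 75.5 RPKM to 33.8 and 30.0 RPKM (log2 fold change -1.06, SE 0.12, adjusted p = 0.0172). Its paralogue Ezh2 was at 4.69 and 5.91 RPKM at E16.5 and at 15.3 and 6.69 RPKM at E18.5 and was not called (1.03, SE 0.38, adjusted p = 0.165). Rises were called in the other Polycomb complex, which ubiquitinates histone H2A. Its subunit Bmi1, which spermatogonial stem cells need, went from 24.1 and 30.7 RPKM to 55.5 and 43.3 RPKM (0.86, SE 0.14, adjusted p = 0.0288). The same direction was called for Rnf2 (0.84, adjusted p = 0.0357) and Pcgf3 (0.90, adjusted p = 0.0339). All 4 rises were lost without E16.5 replicate 1 and without E16.5 replicate 2 and that of Pcgf3 also without the length and GC trend, the fall of Ezh1 was lost without E16.5 replicate 2, and without E18.5 replicate 1 or 2 there were 12 rises in each case and 10 or 6 falls.

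**Figure D1:**
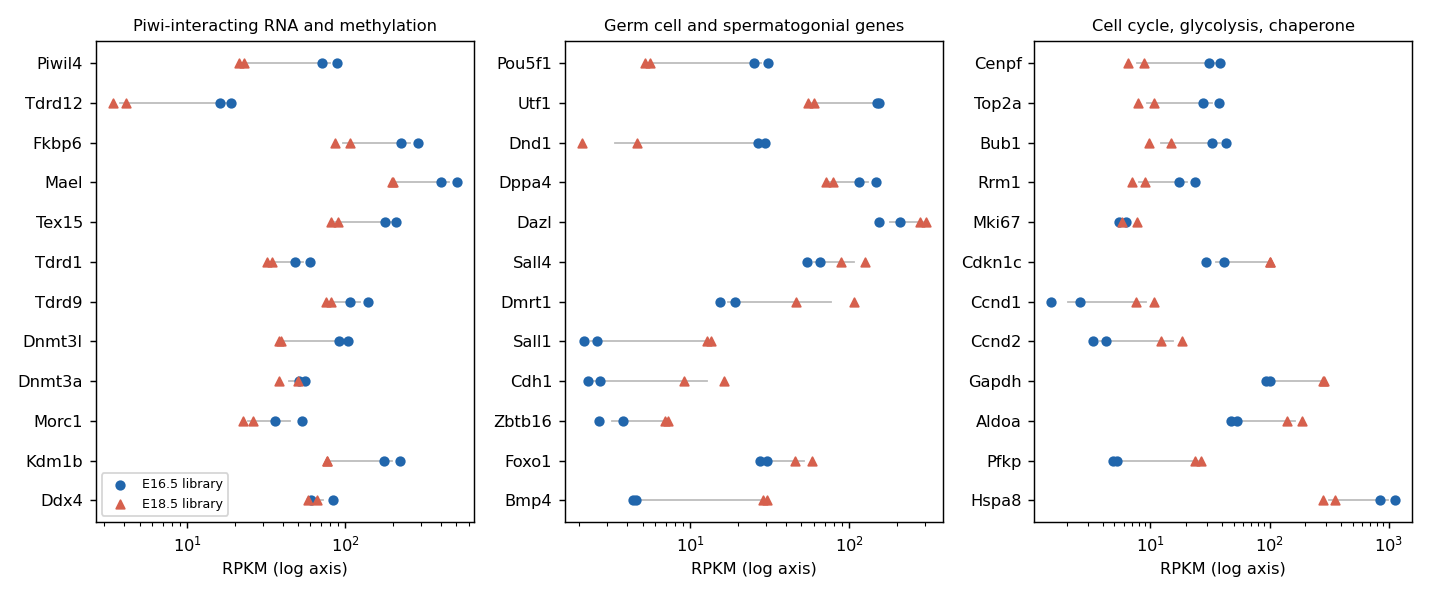
RPKM of 36 genes in the 4 Morc1tg/+ libraries, on log axes. Circles are the 2 E16.5 libraries, triangles the 2 E18.5 libraries, and grey lines join the means of the stages. Most genes of the left panel, such as Piwil4 and Dnmt3l, lie lower at E18.5 without overlap, while Ddx4 and Mki67 overlap.

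Genes that mark the germ cell lineage fell more often than they rose. Of 20 genes, 9 (45%) were called lower and 2 (10%) higher, against 4.25% and 3.49% of all genes, with a median log2 fold change of -0.72. The list shares Piwil4, Mael, Tdrd1, Rnf17 and Morc1 with groups described above. With E16.5 replicate 1 or 2 left out, 5 or 4 genes were called lower, without E18.5 replicate 1 or 2, 14 or 11 were, and without the length and GC trend 3 were called lower and 4 higher. Dnd1, an RNA-binding protein that germ cells need to survive and to enter arrest, had the largest fall, from 26.9 and 29.7 RPKM to 4.61 and 2.08 RPKM (-3.10, SE 0.35, adjusted p = 0.0165). Dazl, an RNA-binding protein that lets germ cells respond to the cues for sexual differentiation, rose from 154.2 and 208.1 RPKM to 304.3 and 279.9 RPKM (0.71, SE 0.12, adjusted p = 0.0325). The Dnd1 call held under all 15 alternatives and that of Dazl under 14, the exception being the fit without E16.5 replicate 1. Nanos2, a translational repressor that promotes the male fate, was near the limit of detection, at 1.19 and 1.83 RPKM at E16.5 and at 0.837 and 0 RPKM at E18.5. It was not called (adjusted p = 0.550).

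Pluripotency genes had no common direction. Pou5f1, which encodes OCT4 and whose locus drives the reporter used for the sort, was at 25.0 and 30.8 RPKM at E16.5 and at 5.16 and 5.60 RPKM at E18.5 (log2 fold change -2.35, SE 0.26, adjusted p = 0.0163). The part of the sort gate in this fall was not tested. Utf1, a chromatin protein of pluripotent cells and early spermatogonia, fell from 149.5 and 154.8 RPKM to 60.1 and 54.7 RPKM (-1.40, SE 0.14, adjusted p = 0.0163). Dppa4 fell as well, from 115.9 and 147.1 RPKM to 78.9 and 71.2 RPKM (-0.79, SE 0.12, adjusted p = 0.0279). Otx2, which restrains entry into the germ line in early embryos and acts in the brain, was almost absent at E16.5, at 0.159 and 0.978 RPKM, and stood at 10.8 and 11.5 RPKM at E18.5 (4.34, SE 0.75, adjusted p = 0.0331). Sall4, a zinc finger protein of stem cells, went from 54.5 and 65.1 RPKM to 125.6 and 89.3 RPKM (0.85, SE 0.14, adjusted p = 0.0310). These 5 were the only calls among 31 genes tested (6.45% higher and 9.68% lower, against 3.49% and 4.25% of all genes), where the 2 rises and 3 falls became 4 rises and 1 fall (Pou5f1) without the length and GC trend, 10 rises and 10 falls without E18.5 replicate 1, and 9 rises and 5 falls without E18.5 replicate 2. Pou5f1 was not called without E16.5 replicate 2, and Dppa4 and Sall4 were not called without E16.5 replicate 1 or without E16.5 replicate 2, Utf1 and Dppa4 not without the length and GC trend, while Otx2 was called under all 15 alternatives.

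Several genes of spermatogonial stem cells stood higher at E18.5. Of 33 tested, 9 (27.3%) were called higher, against 3.49% of all genes, and 3 (9.09%) lower, and the median log2 fold change was 0.80. DESeq2 called 13 higher and 5 lower. Leaving out E16.5 replicate 1 or 2 gave 5 or 3 rises and 1 fall, without E18.5 replicate 1 or 2, 18 were called higher in each case and 7 or 6 lower, and without the length and GC trend 9 were called higher and 1 lower. Ddit4, an inhibitor of the growth kinase mTORC1, had the largest rise, from 3.02 and 3.47 RPKM to 18.8 and 22.02 RPKM (2.67, SE 0.28, adjusted p = 0.0163). Sall1, a zinc finger protein related to SALL4, rose from 2.15 and 2.58 RPKM to 12.8 and 13.5 RPKM (2.49, SE 0.20, adjusted p = 0.0163). Cdh1, the adhesion protein E-cadherin, rose from 2.25 and 2.72 RPKM to 16.4 and 9.10 RPKM (2.35, SE 0.29, adjusted p = 0.0191). These 3 calls held under all 15 alternatives.

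Zbtb16, which encodes PLZF and maintains the stem cell pool after birth, rose less and from a low level, 2.66 and 3.75 RPKM, to 6.91 and 7.20 RPKM (1.17, SE 0.24, adjusted p = 0.0470). Foxo1, which acts in the same cells, rose from 27.5 and 30.5 RPKM to 58.1 and 45.6 RPKM (0.84, SE 0.13, adjusted p = 0.0259). Both calls were lost without either E16.5 library, and that of Zbtb16 also without the length and GC trend (log2 fold change 1.47, adjusted p = 0.0628). Gfra1 and Ret, the receptor pair for the niche factor GDNF, did not overlap between stages but were not called. Gfra1 was at 1.63 and 1.72 RPKM and then at 4.71 and 3.80 RPKM (1.34, SE 0.29, adjusted p = 0.0553), and Ret at 2.15 and 2.89 RPKM and then at 8.73 and 4.32 RPKM (1.36, SE 0.32, adjusted p = 0.0666). The falls in this list were Egr4, at 33.4 and 34.4 RPKM and then at 10.2 and 7.76 RPKM (-1.92, SE 0.19, adjusted p = 0.0163), Taf4b (-0.96, adjusted p = 0.0283) and Uchl1, a marker of gonocytes and spermatogonia (-0.84, adjusted p = 0.0312). Egr4 held under all 15 alternatives, and Taf4b and Uchl1 were not called without E16.5 replicate 1, without E16.5 replicate 2 or without the length and GC trend.

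Of 17 genes linked to spermatogonial differentiation, 3 (17.6%) were called higher and 1 (5.88%) lower, against 3.49% and 4.25% of all genes. Dmrt1, which in germ cells controls when spermatogonia leave mitosis, rose from 15.4 and 19.2 RPKM to 106.9 and 46.5 RPKM (log2 fold change 2.13, SE 0.34, adjusted p = 0.0292), with replicates that differed by more than the E16.5 pair. Ccnd2, the cyclin D of spermatogonia that start to differentiate, rose from 3.30 and 4.22 RPKM to 18.46 and 12.4 RPKM (2.04, SE 0.21, adjusted p = 0.0163). Sox3 rose too (2.68, adjusted p = 0.0303), and Tex14, a part of the bridges between germ cells, fell (-1.05, adjusted p = 0.0238). Dmrt1 and Ccnd2 were called under all 15 alternatives, Sox3 and Tex14 not without E16.5 replicate 2 (nor Sox3 without E16.5 replicate 1) and not without the length and GC trend (log2 fold change 2.96 and -0.84, adjusted p = 0.0544 and 0.0877), and without E18.5 replicate 1 or 2, 7 genes were called higher in each case and 8 or 4 lower. The retinoic acid pathway, which later triggers this differentiation, gave no call among 19 genes with edgeR. In it 3 rises and 2 falls had an unadjusted p under 0.05, against 4124 of the 15768 genes tested. DESeq2 called 1 of its genes higher, against 988 of all genes. Its list median was 0.12 as tested and 0.07 or 0.01 without E16.5 replicate 1 or 2. Without E18.5 replicate 1 or 2 it was -0.46 or 0.44. Early meiotic genes gave 2 falls among 30 (6.67%, against 4.25% of all genes), Tex15 and the meiotic cohesin Stag3 (-0.76, adjusted p = 0.0280), which was not called without E16.5 replicate 1, without E16.5 replicate 2 or without the length and GC trend (adjusted p = 0.0905). The median of the meiotic list was 0.20 as tested and 0.24 or 0.05 without E16.5 replicate 1 or 2. Without E18.5 replicate 1 or 2 it was -0.01 or 0.21.

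Some genes of proliferation were lower at E18.5 than at E16.5 in these cells, which divide little at this time. Of 45, 7 (15.6%) were called lower and 1 (2.22%) higher, against 4.25% and 3.49% of all genes, and the median log2 fold change was -0.63. The list median was -0.58 or -0.63 without E16.5 replicate 1 or 2 and -0.76 or -0.445 without E18.5 replicate 1 or 2. Fewer members were called lower without either E16.5 library and more without either E18.5 library. Without the length and GC trend 5 were called lower and 1 higher. Cenpf, a kinetochore protein, fell from 31.3 and 38.1 RPKM to 6.55 and 8.83 RPKM (-2.14, SE 0.22, adjusted p = 0.0163). Top2a, the topoisomerase that untangles replicated chromosomes, fell from 27.9 and 37.9 RPKM to 10.8 and 7.94 RPKM (-1.81, SE 0.17, adjusted p = 0.0163). Both held under all 15 alternatives, as did Cenpe (-1.36, adjusted p = 0.0331). The other falls were the checkpoint kinases Bub1 (-1.59, adjusted p = 0.0347) and Bub1b (-1.67, adjusted p = 0.0394), the reductase subunit Rrm1 (-1.33, adjusted p = 0.0215) and the DNA primase Prim1 (-1.16, adjusted p = 0.0430). None of these was called without E16.5 replicate 2, nor, apart from Bub1, without E16.5 replicate 1. Bub1 and Prim1 were also lost without the length and GC trend, and Prim1 when the libraries were thinned to equal depth.

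Not all of the list moved this way. Mki67, the antigen used to stain cycling cells, was low and gave overlapping values, 5.45 and 6.21 RPKM at E16.5 and 5.77 and 7.76 RPKM at E18.5 (log2 fold change 0.24, adjusted p = 0.586). Cdk2, a kinase of the start of S phase, was the one rise, from 5.99 and 7.40 RPKM to 18.4 and 12.1 RPKM (1.19, SE 0.25, adjusted p = 0.0489), and it was not called without either E16.5 library. All 7 falling genes held a CCAAT box in their promoter window, as did 28 of the 37 tested genes of the whole list with a sequence (75.7%). It is a motif that 38.3% of all tested genes, 40.8% of those called lower and 36.4% of those called higher held. The start-proximal stretches of 3 of them follow, drawn as above with the CCAAT box in capitals, which reads ATTGG where it lies on the other strand.
Cenpf, chr1:189688067-189688236, minus strand: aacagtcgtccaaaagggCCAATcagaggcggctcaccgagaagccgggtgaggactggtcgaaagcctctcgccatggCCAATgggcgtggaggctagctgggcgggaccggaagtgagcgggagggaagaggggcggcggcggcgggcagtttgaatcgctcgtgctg
Top2a, chr11:99024170-99024339, minus strand: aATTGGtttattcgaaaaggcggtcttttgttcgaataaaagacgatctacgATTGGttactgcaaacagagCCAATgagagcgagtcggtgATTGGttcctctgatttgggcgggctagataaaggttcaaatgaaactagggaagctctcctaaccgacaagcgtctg
Bub1b, chr2:118598061-118598230, plus strand: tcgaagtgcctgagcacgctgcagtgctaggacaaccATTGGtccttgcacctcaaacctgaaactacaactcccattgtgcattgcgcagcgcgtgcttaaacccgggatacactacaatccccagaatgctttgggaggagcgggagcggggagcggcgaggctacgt

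Of 28 genes that act in cell cycle arrest or exit, 3 were called higher (10.7%, against 3.49% of all genes). Cdkn1c, which encodes the inhibitor p57 and is imprinted, rose from 29.6 and 41.5 RPKM to 101.5 and 100.1 RPKM (log2 fold change 1.53, SE 0.16, adjusted p = 0.0163), under all 15 alternatives. The others were both cyclins, Ccnd1, from 1.49 and 2.59 RPKM to 10.8 and 7.52 RPKM (2.18, SE 0.32, adjusted p = 0.0246; not called without E16.5 replicate 1), and Ccnd2, described above, which promote the cell cycle rather than its arrest. Cdkn1b, which encodes p27, was at 4.64 and 6.16 RPKM and then at 5.45 and 5.98 RPKM (0.11, adjusted p = 0.825). Without the length and GC trend 6 were called higher, with DESeq2 8 were, and without E18.5 replicate 1 or 2, 9 or 12 were called higher and 5 or 2 lower.

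Signalling genes gave 4 calls in 2 lists, all of them rises. Bmp4, a ligand that primordial germ cells need at their origin, rose from 4.38 and 4.52 RPKM to 30.2 and 28.5 RPKM (log2 fold change 2.73, SE 0.21, adjusted p = 0.0163) under all 15 alternatives, and was the only call among 34 genes of Nodal, activin, TGF-beta and BMP signalling (2.94%, against 3.49% of all genes called higher). The median log2 fold change of this list was 0.41 as tested and 0.42 or 0.44 without E16.5 replicate 1 or 2. Without E18.5 replicate 1 or 2 it was 0.26 or 0.61. Among 30 genes of FGF, KIT and RET signalling, whose median log2 fold change was 0.86, the 3 rises (10%) were in Dusp4 (3.22, adjusted p = 0.0274) and Dusp6 (2.42, adjusted p = 0.0266), phosphatases that dampen MAP kinase signalling and are induced by it, and in the receptor Erbb3 (1.07, adjusted p = 0.0370). DESeq2 called 10 of the 30 higher and 1 lower. The 3 calls were lost without E16.5 replicate 1 and without E16.5 replicate 2, that of Erbb3 without the length and GC trend as well (log2 fold change 1.296, adjusted p = 0.0539), and without E18.5 replicate 1 or 2 there were 14 or 15 rises and 6 or 1 falls.

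Some genes of glycolysis rose. Of 26, 5 (19.2%) were called higher and 1 (3.85%) lower, against 3.49% and 4.25% of all genes, and the median log2 fold change was 0.46. Gapdh was at 93.8 and 101.8 RPKM at E16.5 and at 281.7 and 287.9 RPKM at E18.5 (1.55, SE 0.13, adjusted p = 0.0163). Aldoa, the aldolase of muscle and embryo, was at 47.2 and 53.1 RPKM and then at 188.1 and 139.3 RPKM (1.71, SE 0.14, adjusted p = 0.0163). Pfkp, a form of the rate-limiting phosphofructokinase, was at 5.26 and 4.88 RPKM and then at 23.8 and 26.9 RPKM (2.33, SE 0.21, adjusted p = 0.0163). These 3 held under all 15 alternatives. Tpi1 rose too (2.38, adjusted p = 0.0224). Reads of Gapdh, Aldoa and Tpi1 that also match processed copies would be left out, since only uniquely mapping reads were kept. The levels of these genes are therefore uncertain. Eno3 rose (1.71, adjusted p = 0.0247), whereas Eno1 fell (-0.89, adjusted p = 0.0290) and Pkm2, the highest gene of the list, was at 337.6 and 410.6 RPKM and then at 400.2 and 307.8 RPKM (-0.07, adjusted p = 0.750). Tpi1, Eno3 and Eno1 were not called without E16.5 replicate 1 or without E16.5 replicate 2, without E18.5 replicate 1 or 2, 11 or 13 genes were called higher and 5 or 3 lower, and without the length and GC trend 5 were called higher and 0 lower.

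Ribosomal protein genes gave more falls than any other list, and their number depended on the trend with exon length and GC, which were removed together. Of 81, 35 (43.2%) were called lower and 2 (2.47%) higher, against 4.25% and 3.49% of all genes, 70 of the 81 had a negative log2 fold change, and the median was -0.71. Their summed level was 34630 and 41500 RPKM at E16.5 and 27160 and 22320 RPKM at E18.5. The median exon length of the list is 1434 bases, against 3589 for the genes tested. When the trend with length and GC was removed, 7 of the 81 were still called lower and the median was -0.21, which is -0.41 relative to the median of all genes in that fit (-0.64 in the fit as tested). The test called 28 or 22 lower without E16.5 replicate 1 or 2, and 64 or 53 without E18.5 replicate 1 or 2. Many of these genes have near-identical processed copies elsewhere in the genome. Reads matching a gene and a copy would be left out, since only uniquely mapping reads were kept, so single values are uncertain.

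The 7 that were lower with and without the trend were Rps4x, Rpl7a, Rpl3, Rpl15, Rps19, Rps27 and Rpl6. Rps4x, on the X chromosome, was at 369.5 and 498.3 RPKM and then at 131.7 and 104.9 RPKM (log2 fold change -1.86, SE 0.14, adjusted p = 0.0163). Rpl7a was at 260.8 and 306.8 RPKM and then at 86.8 and 74.0 RPKM (-1.81, SE 0.12, adjusted p = 0.0163). Rpl3 was at 245.8 and 342.3 RPKM and then at 98.9 and 70.0 RPKM (-1.79, adjusted p = 0.0163). At the other end, Rpl35 and Rpl11 were the 2 called higher (0.63 each), calls that were lost without E16.5 replicate 1 and without E16.5 replicate 2 and, for Rpl35, also without the length and GC trend and in the fits of 11 and 20 libraries, and Rps28, one of the 5 highest genes of the E18.5 libraries, was at 638.5 and 596.8 RPKM and then at 975.5 and 1032 RPKM (0.71, adjusted p = 0.0618). Messages of ribosomal proteins start within a run of pyrimidines, through which their translation is controlled, so the starts of 3 of those that fell are shown. In the 30 bases around the start, 13 of 60 ribosomal protein genes with a sequence held CTTTC (21.7%), and 5 of 25 that fell did (20%), against 3.11% of all genes. Capitals mark CTTTC.
Rpl7a, chr2:26910657-26910826, plus strand: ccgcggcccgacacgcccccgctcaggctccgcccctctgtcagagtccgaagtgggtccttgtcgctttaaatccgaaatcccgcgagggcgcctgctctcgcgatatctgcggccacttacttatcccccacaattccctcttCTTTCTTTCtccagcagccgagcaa
Rps27, chr3:90213629-90213798, minus strand: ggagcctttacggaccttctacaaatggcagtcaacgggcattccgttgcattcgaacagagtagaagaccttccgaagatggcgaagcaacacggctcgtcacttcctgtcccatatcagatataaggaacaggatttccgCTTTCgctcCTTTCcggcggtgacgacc
Rpl15, chr14:18270967-18271136, minus strand: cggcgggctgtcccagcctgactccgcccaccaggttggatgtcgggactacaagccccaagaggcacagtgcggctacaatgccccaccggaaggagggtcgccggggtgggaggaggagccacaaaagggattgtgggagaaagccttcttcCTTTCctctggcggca

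Nuclear genes of oxidative phosphorylation, another set of short transcripts (median exon length 1243 bases), were called lower in 12 of 83 cases, against 4.25% of all genes, with a median of -0.29. Without the trend 1 was called lower and 1 higher, and the median was 0.28, which is 0.08 above the median of all genes in that fit, so the direction of the group turned with this choice. Leaving out E16.5 replicate 1 or 2 gave a list median of -0.37 or -0.42, and leaving out E18.5 replicate 1 or 2 one of -0.38 or -0.41. Fewer members were called lower without either E16.5 library and more without either E18.5 library. Uqcrc1, a core subunit of complex III, was the call that stayed, at 153.8 and 198.5 RPKM and then at 58.2 and 29.2 RPKM (log2 fold change -2.02, adjusted p = 0.0224). Cox4nb, which the pattern of names took in and which is not a subunit, is among the 12.

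**Figure D2:**
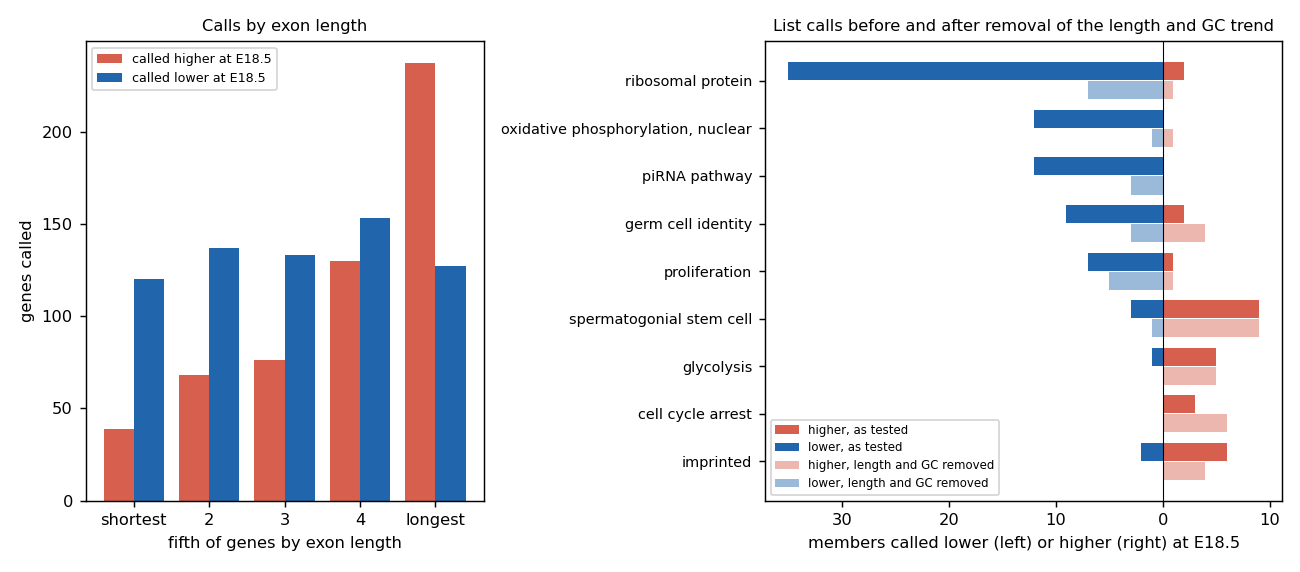
Left, number of genes called higher (red) or lower (blue) at E18.5 in 5 bins of the tested genes by exon length. Right, members of 9 gene lists called lower (bars to the left) or higher (to the right), as tested (dark) and after the trend with exon length and GC had been removed (pale). The falls of the ribosomal protein list go from 35 to 7, and the spermatogonial stem cell list has 9 rises in each setting, although not all of the same genes.

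Stress and immediate early genes, which can respond to the dissociation of tissue, gave 4 rises (16%) and 3 falls (12%) among 25, against 3.49% and 4.25% of all genes. The heat shock proteins Hspa8, from 845.4 and 1131 RPKM to 353.5 and 281.4 RPKM (log2 fold change -1.63, SE 0.12, adjusted p = 0.0163), Dnajb1 (-1.47, adjusted p = 0.0230) and Hsph1 (-1.31, adjusted p = 0.0163) fell. The early response genes Egr1 (1.62, adjusted p = 0.0163), Egr2 (2.28, adjusted p = 0.0356), Egr3 (4.16, adjusted p = 0.0290) and Ier3 (3.35, adjusted p = 0.0484) rose. Egr3 was at 0.403 and 0.347 RPKM at E16.5 and at 9.15 and 4.67 RPKM at E18.5. Hspa8, Hsph1 and Egr1 were called under all 15 alternatives, the other 4 calls were lost without E16.5 replicate 1 and without E16.5 replicate 2, and without E18.5 replicate 1 or 2 the list had 8 or 13 rises and 7 or 5 falls among 27 genes tested. Dnajb1 was not called without the length and GC trend either, nor Ier3 when the libraries were thinned to equal depth. Egr2 is also on the list of stem cell genes above. Hspa8 has processed copies, and reads matching it and a copy would be left out.

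Imprinted genes gave 6 rises (14.3%) and 2 falls (4.76%) among 42, against 3.49% and 4.25% of all genes. Mest, a hydrolase expressed from the paternal allele, rose from 7.29 and 8.76 RPKM to 40.6 and 21.7 RPKM (log2 fold change 1.94, SE 0.28, adjusted p = 0.0239). Slc38a4, an amino acid transporter, rose from 10.97 and 13.6 RPKM to 45.7 and 34.4 RPKM (1.71, SE 0.15, adjusted p = 0.0163). Igf2, the fetal growth factor, rose from 28.5 and 28.7 RPKM to 52.6 and 49.8 RPKM (0.84, SE 0.14, adjusted p = 0.0290), whereas H19, its neighbour, was at 7.34 and 7.35 RPKM and then at 6.00 and 4.83 RPKM and was not called (-0.44, adjusted p = 0.398). The other rises were Cdkn1c, described above, Peg3 (1.07, adjusted p = 0.0237) and Peg10 (0.60, adjusted p = 0.0341), and the falls were Trappc9 (-1.14, adjusted p = 0.0430) and Copg2 (-1.08, adjusted p = 0.0363). Mest, Slc38a4 and Cdkn1c were called under all 15 alternatives, and the other 5 calls were lost without E16.5 replicate 1 and without E16.5 replicate 2. In this list, without E18.5 replicate 1 or 2, 21 or 15 genes were called higher and 11 or 6 lower, and without the length and GC trend 4 were called higher and 0 lower, with the calls of Igf2 (log2 fold change 1.13, adjusted p = 0.0539), Peg10 (0.69, adjusted p = 0.0667) and both falls lost (Trappc9, adjusted p = 0.169, and Copg2, adjusted p = 0.0556).

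**Figure D3:**
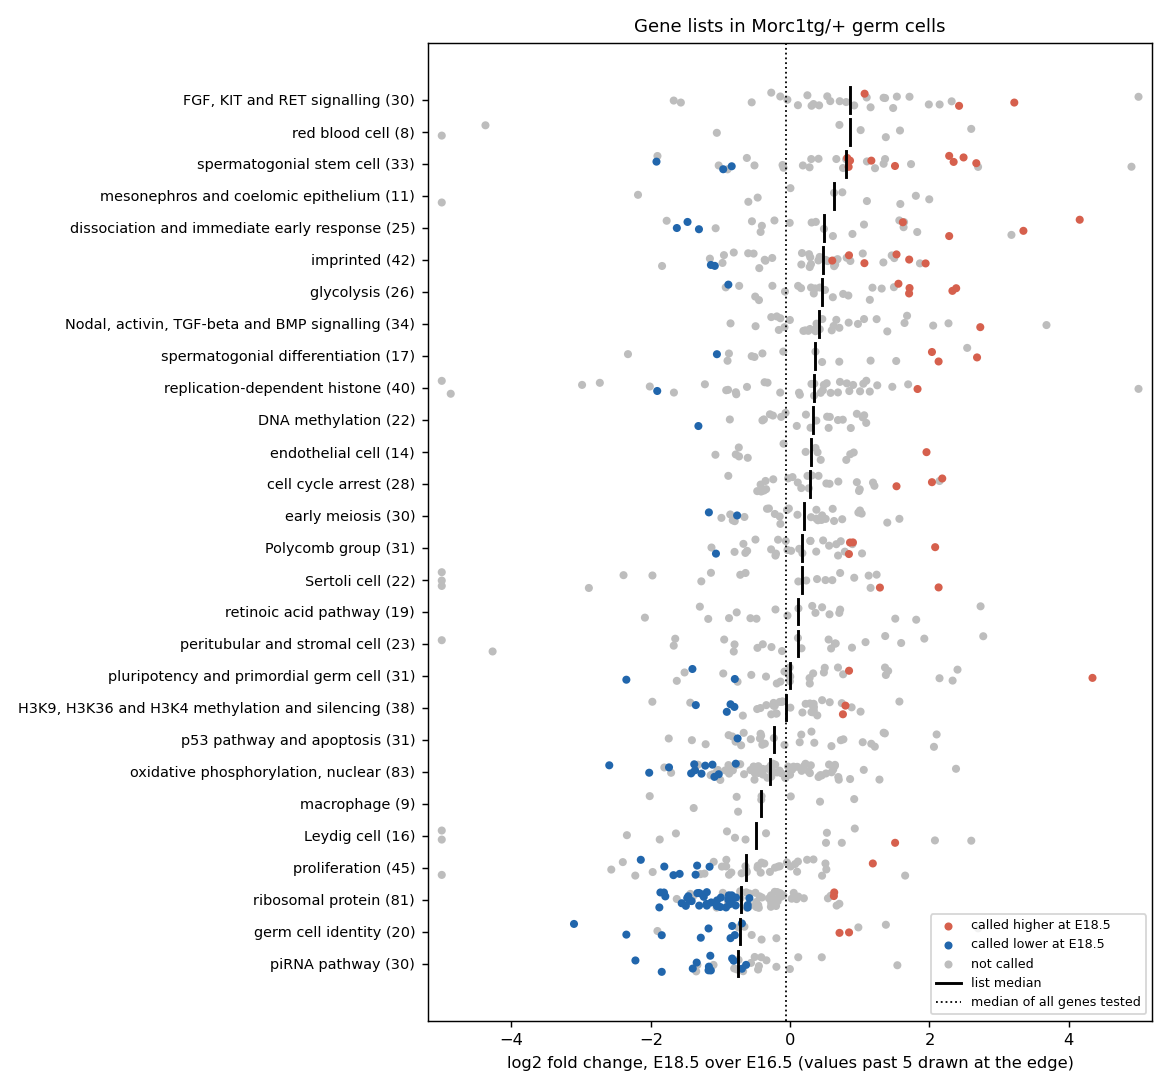
Log2 fold change, E18.5 over E16.5, of each tested gene of 28 gene lists in the Morc1tg/+ libraries, with the number of genes tested in brackets. Red points were called higher at E18.5, blue points lower and grey points were not called, black bars are list medians, and the dotted line is the median of all genes tested, -0.07. The piRNA pathway, germ cell identity and ribosomal protein lists lie lowest by their medians.

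Outside these lists, several of the 15 largest rises were in genes below 1.1 RPKM at E16.5. Cthrc1, a secreted collagen regulator, went from 0.536 and 0.884 RPKM to 8.56 and 11.7 RPKM (log2 fold change 3.86, SE 0.57, adjusted p = 0.0250). Zic1, a zinc finger factor of the neural tube, went from 0.500 and 0.573 RPKM to 7.35 and 4.95 RPKM (3.51, SE 0.30, adjusted p = 0.0163). Dach1, a cofactor in eye and limb development, went from 1.08 RPKM in both E16.5 libraries to 12.9 and 11.4 RPKM (3.498, SE 0.22, adjusted p = 0.0163). Pla2g7, a secreted phospholipase, went from 2.46 and 3.59 RPKM to 25.0 and 31.2 RPKM (3.25, SE 0.28, adjusted p = 0.0163), and Six3, a homeobox factor of eye and forebrain, from 0.999 and 1.04 RPKM to 6.56 and 8.33 RPKM (2.89, SE 0.30, adjusted p = 0.0163). The rule that chose these genes required that the stages not overlap.

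The rest of the 15, with log2 fold changes from 2.90 to 2.61, were Hmgn5, Basp1, Tgif1, Tmsb4x, Sall2, Fev, Dlx2, Bcl11a, Zfp36l1 and Scd1. Tgif1 represses transcription downstream of TGF-beta, Bcl11a and Sall2 are zinc finger repressors, Fev and Dlx2 are factors of neurons, and Scd1 is a fatty acid desaturase. Tmsb4x has copies, and reads matching it and a copy would be left out. Zic1, Dach1, Pla2g7, Six3, Tgif1, Sall2, Bcl11a, Zfp36l1 and Scd1 were called under all 15 alternatives. Cthrc1, Hmgn5, Basp1, Tmsb4x, Fev and Dlx2 were not called without E16.5 replicate 1 and without E16.5 replicate 2, nor Dlx2 without the length and GC trend (log2 fold change 3.06, adjusted p = 0.0506) or in the fit of all 11 Morc1tg/+ libraries (0.0578).

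Among the 15 largest falls, Tmem216, a protein of the base of cilia, had 275 reads at E16.5 and 1 at E18.5, which at these depths is a ratio of 84.7 (exact 95% interval 15.1 to 3358, counting error only). Serpina3c, a protease inhibitor, had 495 and 2 reads, a ratio of 76.2 (21.0 to 631.3). Neither was called in the Morc1tg/tg libraries, where Tmem216 was at 3.22 and 5.85 RPKM at E16.5 and at 4.397 and 4.48 RPKM at E18.5, and Serpina3c at 11.3 and 10.7 RPKM and then at 7.84 and 2.23 RPKM, but the difference between genotypes was not called for either (adjusted p = 0.350 for both). Both calls in the controls were lost without E16.5 replicate 1 and without E16.5 replicate 2. That of Tmem216 was also lost without the length and GC trend (log2 fold change -5.96, against -6.36 as tested, adjusted p = 0.0504). Ctns, the lysosomal cystine transporter, fell from 10.4 and 12.8 RPKM to 0.721 and 0.573 RPKM (log2 fold change -4.15, SE 0.31, adjusted p = 0.0163). Tpp1, a lysosomal protease, fell from 31.5 and 35.2 RPKM to 4.78 and 5.4 RPKM (-2.69, SE 0.19, adjusted p = 0.0163). Falls were also called for Bst2, an antiviral membrane protein, from 26.3 and 33.8 RPKM to 2.18 and 3.24 RPKM (-3.43, SE 0.40, adjusted p = 0.0181), Cd2, a T cell adhesion protein, from 27.4 and 37.2 RPKM to 4.59 and 1.58 RPKM (-3.41, SE 0.46, adjusted p = 0.0217), and Vwf, von Willebrand factor, from 17.8 and 21.7 RPKM to 2.95 and 1.86 RPKM (-3.04, SE 0.20, adjusted p = 0.0163). Ptprc, which marks the blood cells that carry CD2, was at 0.157 and 0.119 RPKM at E16.5. The part of other cell types in these falls was not tested. Ctns, Bst2, Cd2, Vwf and Tpp1 were called under all 15 alternatives.

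The other 8 of the largest falls were Dtwd1, Rcc1, Lzts1, Prodh, Wdr92, Zc3h12a, Shc3 and Pigf, with log2 fold changes from -3.91 to -2.37. Rcc1 encodes the exchange factor for the GTPase Ran, Zc3h12a an RNase that clears inflammatory messages, and Prodh the first enzyme of proline breakdown. The call of Pigf was lost without E16.5 replicate 2, and those of the other 7 without E16.5 replicate 1 and without E16.5 replicate 2. Without the length and GC trend Dtwd1 (log2 fold change -3.23, adjusted p = 0.0797), Prodh (-1.97, adjusted p = 0.116) and Zc3h12a (-1.94, adjusted p = 0.118) were not called. Prodh was not called when the libraries were thinned to equal depth either (adjusted p = 0.0565). The genes with the highest RPKM at both stages were translation factors and ribosomal proteins. Eef1a1, the elongation factor that brings transfer RNA to the ribosome, was first at both, at 2656 and 3370 RPKM and then at 2622 and 1737 RPKM, and was not called (-0.47, adjusted p = 0.133). Pabpc1, the poly(A)-binding protein, was at 1113 and 1400 RPKM and then at 1434 and 1185 RPKM (0.07, adjusted p = 0.710).

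The same stages in Morc1tg/tg mice provided libraries that share no sample with the controls, although litters and sort days may be shared. The agreement given here cannot tell development apart from a difference of litter or handling between the stages that both genotypes share. In the Morc1tg/tg libraries, reads on genes were 12600673 and 7610757 at E16.5 and 2698197 and 2884832 at E18.5, again fewer at E18.5. There, 2697 of 15062 genes tested were called (17.9%), 1147 higher (7.62%) and 1550 lower (10.3%) at E18.5. Of the 1218 control calls that were tested in both genotypes, 1200 (98.5%) had the same direction in Morc1tg/tg, as had 73.3% of all 14687 genes tested in both. The call was shared for 965 of them, which is 79.2% of the control calls and 35.8% of the Morc1tg/tg calls, and none was called in the opposite direction. Over the genes called in the controls the log2 fold changes of the 2 genotypes correlated at r = 0.903, and over all genes at 0.425, across genes that are not independent replicates. By direction, 409 of 548 rises and 556 of 670 falls were called alike.

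By list, the piRNA pathway had 17 falls and 1 rise among 30 genes (median -0.98), with Piwil4 at 94.6 and 86.9 RPKM at E16.5 and at 14.7 and 8.88 RPKM at E18.5. Proliferation had 16 falls among 45 genes (median -1.0). Spermatogonial stem cell genes had 8 rises and 5 falls among the 33 tested in the controls (median 0.46). Glycolysis had 8 rises and 2 falls among 26, and ribosomal proteins had 56 falls and 2 rises among 81. Over all genes tested in Morc1tg/tg, 7.62% were called higher and 10.3% lower. Of the 15 largest control rises, 14 were tested, all 14 had the same direction and 12 were called, and of the 15 largest falls 14 had the same direction and 11 were called. Sall4 and Sox3, called higher in the controls, were not called in Morc1tg/tg (0.09 and -0.21, adjusted p = 0.799 and 0.890), but the difference between genotypes was not called for either. A test of that difference over all 8 libraries called 1 gene of 16435 (0.00608%). At an unadjusted p under 0.05 there were 1174 genes, DESeq2 called 65, and edgeR called 378 without E18.5 replicate 1 of the controls.

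**Figure D4:**
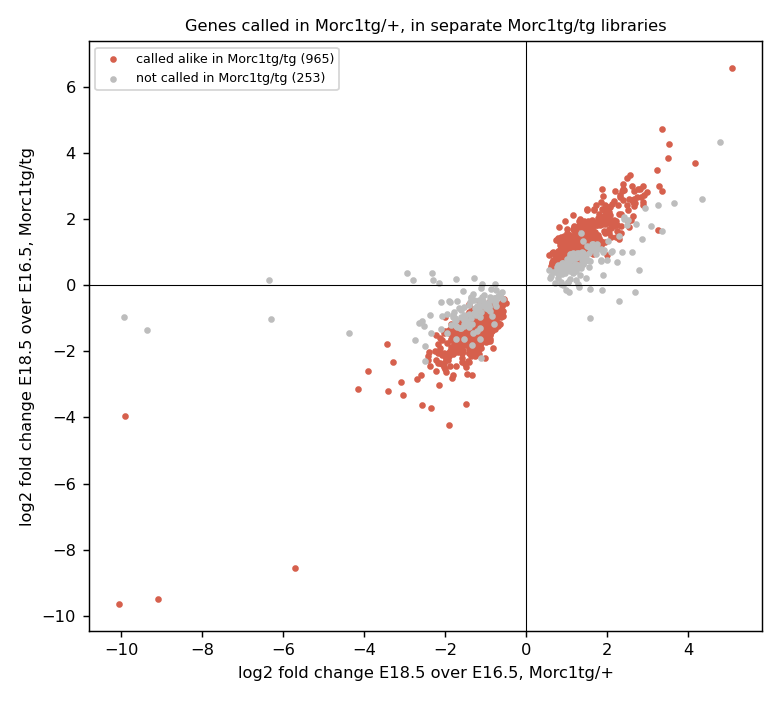
Log2 fold change, E18.5 over E16.5, of each gene called in Morc1tg/+ and tested in Morc1tg/tg. The x axis is the change in Morc1tg/+, the y axis that in the separate Morc1tg/tg libraries, red points were called in the same direction in both (965 genes) and grey points were not called in Morc1tg/tg (253 genes). Almost all points lie in the lower left and upper right quadrants.

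Sorted Morc1tg/+ germ cells of P2.5 (3 libraries) and P10.5 (4 libraries, sorted on surface proteins instead of eGFP) show where the fetal levels lie on a longer course, given as mean RPKM and without a test. Of the 15 largest falls, 7 were above both E18.5 libraries in every P2.5 library and 2 were below both. At P10.5, 7 were above in every library and 4 below. Some of the other genes that were lower at E18.5 were lower still after birth. Piwil4 averaged 80.1, 21.98, 11.1 and 3.55 RPKM from E16.5 to P10.5, Dnmt3l 97.4, 38.7, 2.93 and 0.193 RPKM, and Kdm1b 198, 76.3, 27.3 and 15.4 RPKM. Top2a and Cenpf were higher again after birth. Top2a averaged 32.9, 9.35, 91.6 and 67.3 RPKM, and Cenpf 34.7, 7.69, 46.9 and 49.8 RPKM.

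Of the 15 largest rises, 10 were below both E18.5 libraries in every P2.5 library and 2 were above both. At P10.5, 11 were below in every library and 2 above. The largest rises and falls were chosen for their change at E18.5. Of the genes that were higher at E18.5, some stayed high and others did not. Dmrt1 averaged 17.3, 76.7, 128 and 155 RPKM, and Dazl 181, 292, 305 and 229 RPKM. In contrast, Otx2 averaged 0.569, 11.2, 0.101 and 0.0946 RPKM, Dach1 1.08, 12.2, 0.388 and 0.0225 RPKM, Bmp4 4.45, 29.4, 2.57 and 2.36 RPKM, and Cdkn1c 35.6, 101, 20.0 and 7.48 RPKM.

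**Figure D5:**
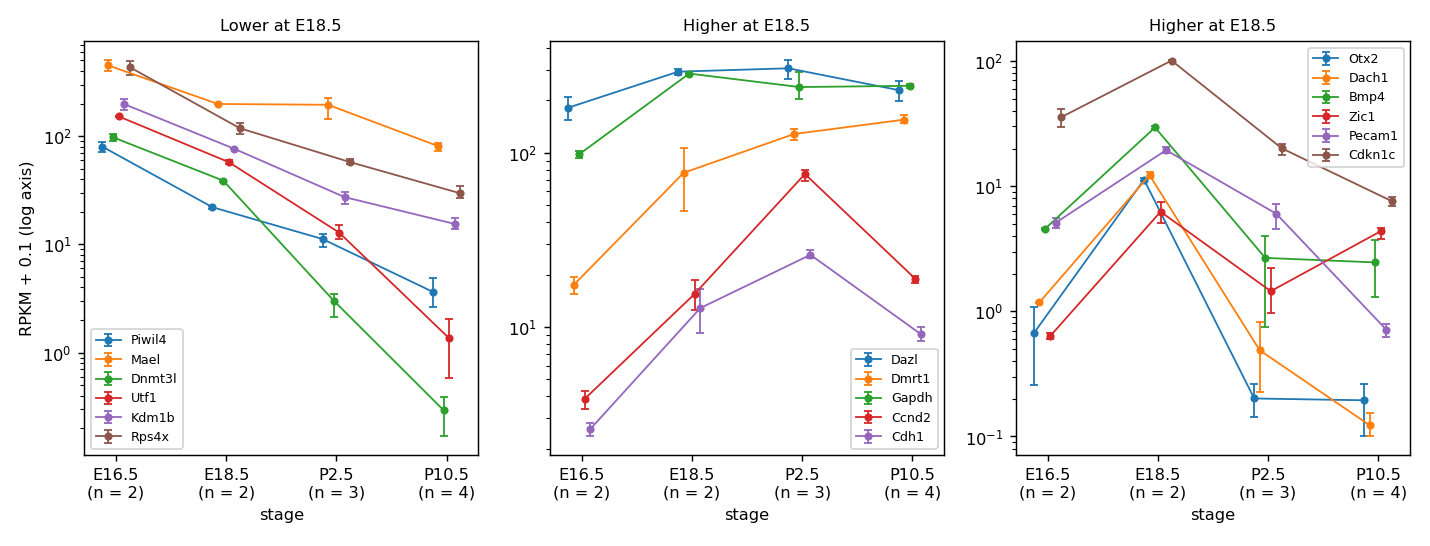
Mean RPKM plus 0.1 (log axis) of 17 genes in sorted Morc1tg/+ germ cells of 2 fetal and 2 postnatal stages, with bars from the lowest to the highest library. Genes of the left panel were lower at E18.5 than at E16.5 and those of the other panels higher. In the right panel Otx2, Dach1 and Bmp4 peak at E18.5.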

How the data were processed

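For each library the authors trimmed reads to 50 bp, discarded those matching ribosomal RNA and retained uniquely mapping reads (mm9). They deposited raw gene counts from HTSeq, without normalization, and beside each an RPKM value, a count that the authors scaled to exon length and mapped reads. The submitters' processing notes name Bowtie, HTSeq and mm9. The authors' own tests used DESeq and are not used here. Counts were tested in R 4.3.3 with edgeR 4.0.16 (quasi-likelihood test after TMM normalization, genes kept by filterByExpr, stage as the only term), adjusted p-values by Benjamini-Hochberg across every gene tested, threshold 0.05. Log2 fold changes and SE come from this fit. DESeq2 1.42.0 was an alternative. Labels say 1 library per mouse but do not say which mice were littermates, so p-values measure the spread between these mice. With 2 libraries a stage, an exact permutation test cannot reach the threshold and none was used. The fits were tested on simulated counts, with 200 genes changed.

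The gene lists, the groups compared and the rule for named genes were chosen with earlier results of these data known. The rule took list members, first those that define a list and up to 6 called in each direction, the 15 largest called rises and falls outside the lists whose stages do not overlap and whose mean reached 5 RPKM in the higher stage, without gene models named by number or clone, the 5 highest genes per stage, and Morc1. Exon length and GC (loess span 0.3) came from a GENCODE gene annotation of the mm9 build, not from the deposited files. Length was found for 99.8% of the genes. Promoters came from RefSeq by symbol. Depth is given as reads on genes, and intervals cover counting error only. Transposons, small RNA and whole testis were not used here, and single values of 2 genes are not reported here.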

Additional observations from a re-analysis of the deposited data

Results flagged for a closer look

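The change between stages differed between genotypes for 1 gene in the test of that difference over all 8 fetal libraries. This was 2610005L07Rik, an unnamed gene model on chromosome 8 (mm9, 19863337 to 20020413). In Morc1tg/+ it was at 16.7 and 18.0 RPKM at E16.5 and at 2.82 and 2.14 RPKM at E18.5 (log2 fold change -2.81, SE 0.21, adjusted p = 0.0163). In Morc1tg/tg, where the 2 stages overlapped, it averaged 19.4 RPKM (SD 1.33, n = 2) at E16.5 and was at 17.8 and 19.9 RPKM at E18.5 (0.15, adjusted p = 0.620). The difference, Morc1tg/tg minus Morc1tg/+, was 2.97 on the log2 scale (SE 0.29, adjusted p = 0.0128). No gene was called for this difference when any of the 4 E16.5 libraries or E18.5 replicate 2 of either genotype was left out, so the call was lost in 6 of 8 such fits, in which 465 to 1815 genes had an unadjusted p under 0.05. With all libraries DESeq2 called 65 genes. The gene was chosen after its values were seen, since the rule for named genes leaves out such models.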

How the results depend on the processing

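The 1220 control calls kept their direction under every alternative that fitted the gene, except Ftl1 and Rps13 once the length and GC trend was removed (Rps13, 0.0407 against -0.59), but their number moved with the setting. DESeq2 called 2242 genes (988 higher, 1254 lower), a fit of all 11 Morc1tg/+ sorted libraries 3151 (1373 and 1778), one of all 20 sorted libraries 3062 (1291 and 1771) and removal of the length and GC trend 758 (524 and 234). A mean count of at least 50 gave 912 rises. Leaving out 1 library gave 255 to 9106 calls, 96 to 3458 rises and 151 to 5648 falls, where the lone library of a stage is assumed to vary like the other stage. The Morc1tg/tg calls moved by over 1.5 times only when 1 library was left out (1313 to 7738, 533 to 3020 rises, 780 to 4718 falls). The difference between genotypes gave 65 calls with DESeq2 (47 higher, 18 lower), 65 without a filter (40 and 25), and 0 to 378 without 1 library (0 to 326 higher, 0 to 52 lower), with 465 to 3607 genes at an unadjusted p under 0.05. With the replicate block the controls gave 2011 calls (823 rises, 1188 falls), but replicate numbers did not pair the samples, since the deviations of same-numbered libraries correlated at -0.015. The median of all genes was -0.18 with the block, -0.29 without a filter, -0.28 without E18.5 replicate 1 and 0.20 without the length and GC trend. Of 171 named genes, 80 lost their call without that trend, beside Rps13, 87 or 91 without E16.5 replicate 1 or 2, 3 when thinned to equal depth, 2 with 11 libraries and 1 with 20. Without an E16.5 library the spread came from the E18.5 pair alone, and without an E18.5 library from the E16.5 pair alone. Replicates of these pairs differed by a median of 0.579 and 0.213 on the log2 scale. A call lost without an E16.5 library therefore need not rest on that library. The shallower E18.5 libraries limit what can be said of genes with few reads.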

Other observations

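Transcription factors of early development were looked at as families after Otx2, Zic1, Six3, Sall2 and Dlx2 had been seen among the rises, so the counts that follow are no independent evidence. Of the 23 listed genes of the families of these 5 factors, 21 were tested and 10 were called higher at E18.5, with a median log2 fold change of 1.77, and in Morc1tg/tg 11 were called higher, where 3.49% and 7.62% of all genes were. Summed over the families, the level was 82.7 and 99.1 RPKM at E16.5 and 248.3 and 189.2 RPKM at E18.5. Of these sums, Sall4 alone made up 54.5 and 65.1 RPKM at E16.5 and 125.6 and 89.3 RPKM at E18.5. Otx1 was at 2.27 and 2.18 RPKM and then at 9.59 and 9.24 RPKM (log2 fold change 2.09).

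Neuron markers were listed for the same reason. Of 12, all tested, 1 was called, which is near the 7.74% of all genes called, Nefm, a neurofilament, which went from 9.855 and 10.2 RPKM to 36 and 43.4 RPKM (log2 fold change 2.00, adjusted p = 0.0163). The 12 genes summed to 36.9 and 42.7 RPKM at E16.5 and to 63.4 and 71.3 RPKM at E18.5, of which Nefm made up more than the rest at E18.5.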
